A study of Mus musculus with 6 samples.

Results

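The genes described here encode the core of the cyclin D switch: 3 D-type cyclins (Ccnd1, Ccnd2 and Ccnd3), their catalytic partners (Cdk4 and Cdk6) and 5 inhibitors of cyclin-dependent kinases (Cdkn1a, Cdkn1b, Cdkn1c, Cdkn2b and Cdkn2c). They were chosen by gene symbol, and all 10 were found among the 18059 genes of the deposited tables and passed the filter on low counts. The samples are primary cardiac fibroblasts of C57BL/6 mice aged 1 to 2 weeks, cultured with 15% serum. PDGF-DD, the growth factor PDGF-D as a dimer, was given to 3 of them at a dose that the labels state as 20 µM, a doubtful unit for a growth factor. Saline was given to the 3 control samples, and both treatments lasted 12 hours. The labels contradict each other on genotype. The growth protocol says that all the cells came from mice lacking PDGF-D globally, whereas the genotype entry is PDGF-D -/- for the PDGF-DD samples and control for the saline samples. If the genotype entry is right, genotype and treatment cannot be told apart in any comparison below.

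D-type cyclins are the part of the cell cycle machinery that growth factors control most directly. They bind CDK4 or CDK6, and the active kinase phosphorylates the retinoblastoma protein and its relatives, which then release E2F transcription factors that drive the genes of DNA synthesis. Inhibitors of the INK4 class (the products of Cdkn2b and Cdkn2c) bind CDK4 and CDK6 themselves. Those of the CIP/KIP class (the products of Cdkn1a, Cdkn1b and Cdkn1c) block CDK2 complexes and also bind cyclin D complexes, whose assembly they can assist.

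Promoter sequences from RefSeq (build GRCm38.p6) were matched to 7 of the 10 genes by gene identifier, each running from 250 bases before to 50 after a listed start, and Ccnd1, Ccnd2 and Cdkn1c were not among them. The 3 sequences below are examples of those that hold motifs of factors known to act on this gene family, and capitals mark the motif. Other windows with a motif are named further below without their sequence. That of Cdk4 (chr10:127063285-127063584, plus strand) holds 4 E-boxes, the binding sequence of MYC and related factors. That of Cdkn1a is the more upstream of its 2 listed starts (chr17:29090729-29091028, plus strand) and holds a pair of p53 half-site cores. That of Cdkn2b (chr4:89310983-89311282, minus strand) holds a cyclic AMP response element.
Cdk4: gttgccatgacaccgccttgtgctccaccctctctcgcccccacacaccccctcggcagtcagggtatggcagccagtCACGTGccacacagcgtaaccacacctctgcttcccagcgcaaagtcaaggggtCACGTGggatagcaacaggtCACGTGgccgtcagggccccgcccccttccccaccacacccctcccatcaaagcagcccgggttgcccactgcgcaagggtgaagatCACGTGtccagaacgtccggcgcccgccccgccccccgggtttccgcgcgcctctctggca
Cdkn1a: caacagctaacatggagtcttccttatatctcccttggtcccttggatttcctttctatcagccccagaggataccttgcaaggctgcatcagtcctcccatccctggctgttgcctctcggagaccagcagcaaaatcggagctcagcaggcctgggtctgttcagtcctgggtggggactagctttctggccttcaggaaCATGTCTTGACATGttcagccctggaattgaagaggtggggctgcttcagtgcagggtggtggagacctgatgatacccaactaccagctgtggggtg
Cdkn2b: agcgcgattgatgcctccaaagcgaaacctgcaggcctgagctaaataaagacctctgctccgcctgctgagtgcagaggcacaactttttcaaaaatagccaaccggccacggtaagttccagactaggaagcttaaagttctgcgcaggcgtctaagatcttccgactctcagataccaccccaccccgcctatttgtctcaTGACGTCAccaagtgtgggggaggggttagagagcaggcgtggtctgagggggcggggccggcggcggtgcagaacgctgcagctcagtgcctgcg

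The motifs were searched on both strands as exact letters: CACGTG for the E-box, TGACTCA for AP-1, TGACGTCA for the cyclic AMP response element, GTAAACA for FoxO factors, a pair of CATG with 6 bases between them for p53, and TTTGGCGC, TTTCCCGC, TTTGCCGC or TTTCGCGC for E2F. No hits in these promoters overlapped each other. Of 32851 promoters of the same length 7.15% held at least 1 E-box (9.665% of the promoters of tested genes), and 8 promoters (0.0244%) held 4 or more, and Cdk4 was 1 of these. Its E-boxes began at positions -172, -118, -98 and -11 from the start. The cyclic AMP response element of Cdkn2b began at -46, and 1.79% of all promoters and 2.87% of those of tested genes held one. The p53 pair of Cdkn1a began at -48 of the upstream start, and 0.712% of all promoters and 0.324% of those of tested genes held such a pair. Elsewhere among the 7 genes there was an E-box in Cdk6 and at the downstream start of Cdkn2c, and a FoxO motif at the upstream start of Ccnd3. The windows of Cdkn1b held none of these motifs, and no window of the 7 genes held the AP-1 or E2F letters. A match of letters is a description of the sequence and does not show that a factor was bound.

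The libraries held between 21221114 and 21371829 estimated read counts, and their common biological coefficient of variation was 3.96%. No label states that libraries of the same group are from different cultures or animals. What a p-value measures here is library-to-library spread alone, possibly of technical origin. Defining fibroblast genes were abundant, with 18530 to 18841 TPM (a transcript level scaled to length and to a fixed library sum) summed over 10 markers in PDGF-DD and 20109 to 22055 TPM in control. Of these 10 markers 6 were lower and 1 higher with PDGF-DD by edgeR (5 lower with limma on log2(FPKM + 1)). Beside this and the marker counts below, 19.1% of all tested genes were higher and 17.4% lower. No marker of another cell type was at 0 in all 6 libraries. The 8 cardiomyocyte markers summed to 223 to 252 TPM in PDGF-DD and 312 to 336 TPM in control, nearly all of it Tnnt2 (228 TPM against 314 TPM in control). Of 5 tested, 3 were lower by edgeR. DESeq2 and each limma fit called 2 lower, without Ryr2, which stood at only 0.06 to 0.12 TPM over the libraries. The 6 mural cell markers summed to 66.8 to 70.1 TPM in PDGF-DD and 86.6 to 97.6 TPM in control, with 3 of 5 tested lower and 1 higher by edgeR. DESeq2 and limma on log2(FPKM + 1) called 2 of them lower, without Rgs5. The 6 endothelial markers summed to 149 to 152 TPM in PDGF-DD and 153 to 171 TPM in control, with 1 of 6 lower. The 8 leukocyte markers summed to 97.3 to 108 TPM in PDGF-DD and 105 to 118 TPM in control, with none of 8 called by edgeR (2 at an unadjusted p under 0.05 and 0 by DESeq2, while C1qa passed with limma on log2(TPM + 0.1)). The 5 epicardial markers summed to 54.1 to 56.6 TPM in PDGF-DD and 58.9 to 65.6 TPM in control, with 1 of 5 lower. The 4 Schwann cell markers summed to 6.81 to 7.34 TPM in PDGF-DD and 7.54 to 8.71 TPM in control, with none of 3 tested called by edgeR (0 at an unadjusted p under 0.05 and 0 by DESeq2, while S100b passed with limma on log2(TPM + 1) and on log2(FPKM + 1)). The part of these cells in the results below was not tested.

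Of the 10 genes, 8 changed with PDGF-DD: 5 rose (Ccnd1, Ccnd2, Ccnd3, Cdk4 and Cdkn1a) and 3 fell (Cdkn1b, Cdkn1c and Cdkn2b), while Cdk6 and Cdkn2c did not pass the test. A gene was called at a Benjamini-Hochberg adjusted p under 0.05 in edgeR's quasi-likelihood test over 13270 genes. Of all tested genes 36.5% were called, 19.1% as higher and 17.4% as lower. In the same 8 genes the normalised counts of the groups did not overlap, as in 47.1% of all tested genes. The median absolute log2 fold change was 0.25 over the 10 genes and 0.15 over all tested genes, and the median signed change was 0.09 against -0.01.

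**Figure D1:**
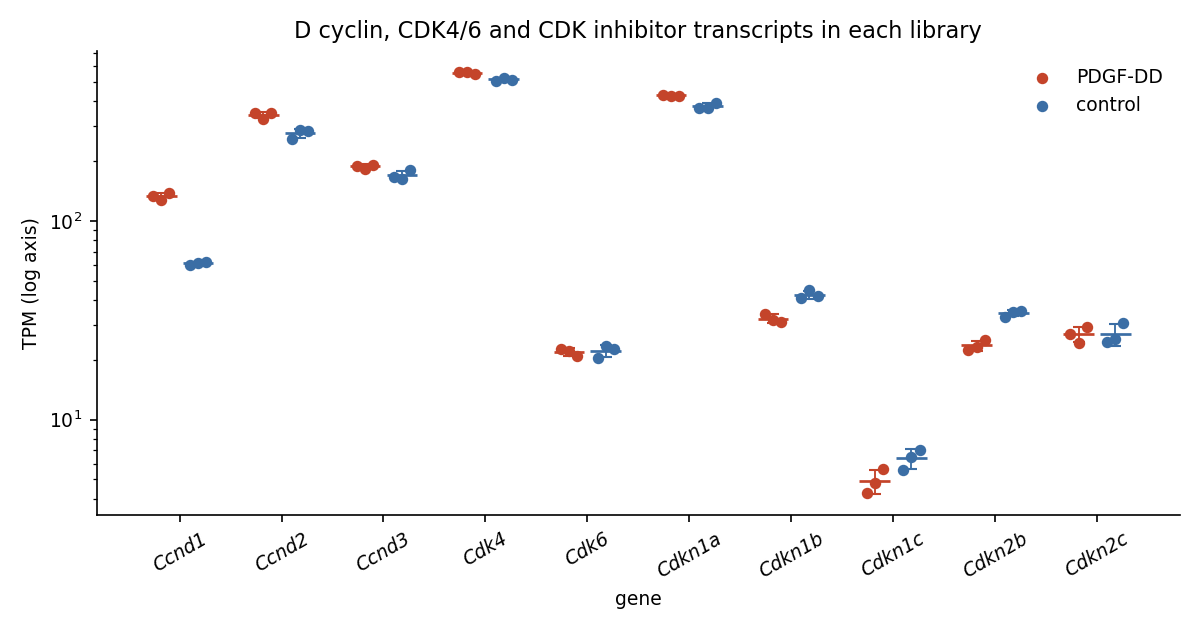
Level of each gene in TPM on a log axis; each point is 1 library, bars give the mean and whiskers the SD of 3 libraries, with PDGF-DD in red on the left and control in blue on the right of each pair. Ccnd1 stands at 128 to 138 TPM in PDGF-DD and at 60.0 to 62.5 TPM in control, while the points of Cdk6 and Cdkn2c overlap between the groups.

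The D cyclins all rose, and Ccnd1 rose by far the most. Ccnd1, which encodes cyclin D1, stood at 133, 128 and 138 TPM in the PDGF-DD libraries and at 60.0, 61.2 and 62.5 TPM in the control libraries. The lowest PDGF-DD library was thus above the highest control library by more than the spread of either group. In the fit the log2 fold change was 1.13 (SE 0.04, 95% interval 1.05 to 1.21, edgeR adjusted p = 4.49e-17), a 2.19-fold rise. This p was the 4th smallest of all 13270 genes, and the size of the rise was the 49th largest; 54 genes (0.407%) were called with a log2 fold change of at least 1. In bulk RNA, more cells that express the gene and more RNA per cell cannot be told apart.

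Ccnd2, which encodes cyclin D2, was the most abundant D cyclin in every library. It stood at 349, 328 and 348 TPM in PDGF-DD and at 260, 287 and 282 TPM in control, again with no overlap. Its log2 fold change was 0.32 (SE 0.04, 95% interval 0.24 to 0.39, edgeR adjusted p = 1.3e-07). Ccnd3, which encodes cyclin D3, stood at 190.0, 183 and 192 TPM in PDGF-DD and at 166, 163 and 180 TPM in control. The highest control library was close to the lowest PDGF-DD library, and the log2 fold change was 0.14 (SE 0.04, 95% interval 0.06 to 0.23, edgeR adjusted p = 0.00954). The call of Ccnd3 was lost without control replicate 2 (adjusted p = 0.0827) and without PDGF-DD replicate 3 (adjusted p = 0.0507); over all 15 alternatives its adjusted p lay between 0.00271 and 0.0827.

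The makeup of the D cyclin pool shifted toward Ccnd1. Summed over the 3 genes, D cyclin transcripts stood at 672, 639 and 678 TPM in PDGF-DD and at 486, 511 and 525 TPM in control. The share of Ccnd1 in that sum was 20.1 ± 0.25% in PDGF-DD and 12.1 ± 0.24% in control (SD, n = 3 each). Ccnd2 held 51.5 ± 0.32% in PDGF-DD and 54.5 ± 1.51% in control, and Ccnd3 held 28.4 ± 0.18% in PDGF-DD and 33.4 ± 1.42% in control. Although it was the least abundant of the 3 in both groups, Ccnd1 accounted for 46.3% of the gain of 156 TPM, Ccnd2 for 41.8% and Ccnd3 for 11.9%. There were 2.56 ± 0.05 Ccnd2 transcripts per Ccnd1 transcript in PDGF-DD and 4.51 ± 0.18 in control (SD, n = 3 each).

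**Figure D2:**
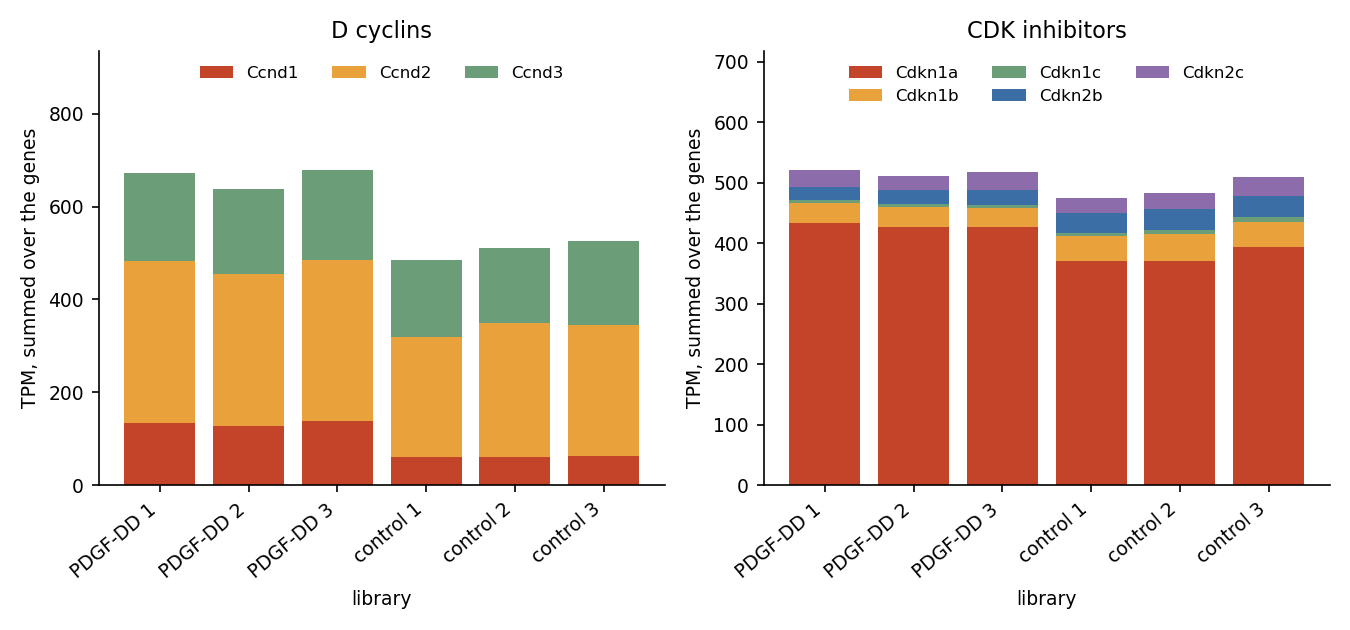
Summed TPM of the D cyclins (left) and of the CDK inhibitors (right) in each library, with the PDGF-DD libraries before the control libraries and each color a gene. The D cyclin bars reach 639 to 678 TPM in PDGF-DD and 486 to 525 TPM in control, and Cdkn1a fills 82.4% to 83.5% of the inhibitor bars in PDGF-DD and 76.8% to 78.1% in control.

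The kinases showed a small change of Cdk4 and none that passed for Cdk6. Cdk4 was the most abundant of the 10 genes in both groups, at 560, 560 and 547 TPM in PDGF-DD and at 509, 523 and 515 TPM in control. The groups did not overlap, and its log2 fold change was 0.12 (SE 0.04, 95% interval 0.04 to 0.20, edgeR adjusted p = 0.0163). That call was lost under 5 of 15 alternatives: limma on log2(TPM + 1) and on log2(TPM + 0.1) (adjusted p = 0.0703 and 0.0706), the replicate block (0.0642), and the fits that left out control replicate 3 (0.059) and PDGF-DD replicate 2 (0.0522). For Cdk4 the adjusted p was 0.00629 at its lowest over the alternatives. Cdk6 stood at 22.7, 22.2 and 20.9 TPM in PDGF-DD and at 20.4, 23.5 and 22.6 TPM in control, with the PDGF-DD values inside the control range. Its log2 fold change was -0.0073 (95% interval -0.10 to 0.08, edgeR adjusted p = 0.917), and its sign turned under 4 of 15 alternatives. Cdk4 made up 96.2 ± 0.11% of the kinase pair's TPM in PDGF-DD and 95.9 ± 0.24% in control (SD, n = 3 each), with overlap between the groups. Per kinase transcript there were 1.15 ± 0.05 D cyclin transcripts in PDGF-DD and 0.943 ± 0.03 in control.

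**Figure D3:**
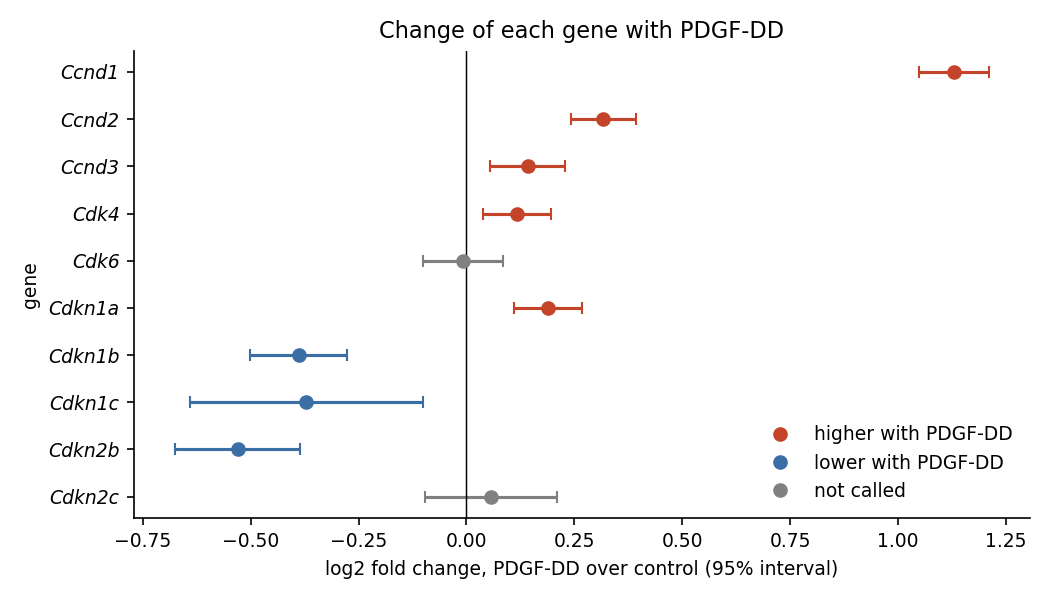
Log2 fold change of each gene, PDGF-DD over control, from the fit over all genes; points are estimates and whiskers 95% intervals, with genes in the order cyclins, kinases, CIP/KIP and INK4 inhibitors. Ccnd1 lies at 1.13, apart from the other 4 genes that rose (0.12 to 0.32), and Cdkn1b, Cdkn1c and Cdkn2b lie between -0.53 and -0.37.

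The CIP/KIP inhibitors went in both directions. Cdkn1a, which encodes p21, stood at 433, 428 and 427 TPM in PDGF-DD and at 371, 371 and 394 TPM in control. The groups did not overlap, and the log2 fold change was 0.19 (SE 0.04, 95% interval 0.11 to 0.27, edgeR adjusted p = 0.000281). Cdkn1b, which encodes p27, stood at 34.1, 31.7 and 31.1 TPM in PDGF-DD and at 40.8, 44.8 and 42.0 TPM in control. Every PDGF-DD library was below every control library, and the log2 fold change was -0.39 (SE 0.05, 95% interval -0.50 to -0.28, edgeR adjusted p = 2.69e-06). There were 13.3 ± 0.54 Cdkn1a transcripts per Cdkn1b transcript in PDGF-DD and 8.91 ± 0.57 in control (SD, n = 3 each).

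Cdkn1c, which encodes p57, was the least abundant of the 10 genes and had the widest relative spread in the PDGF-DD libraries. Its estimated counts were 75, 86 and 99 in PDGF-DD and 102, 111 and 120 in control. These correspond to 4.3, 4.81 and 5.62 TPM in PDGF-DD and 5.59, 6.5 and 7.07 TPM in control, so that the highest PDGF-DD library was just above the lowest control library on this scale. Its log2 fold change was -0.37 (SE 0.13, 95% interval -0.64 to -0.10, edgeR adjusted p = 0.0276). The call was lost in DESeq2 (adjusted p = 0.155) and in the fits that left out control replicate 2 (0.0656), control replicate 3 (0.113), PDGF-DD replicate 1 (0.16) and PDGF-DD replicate 2 (0.08). Its adjusted p lay between 0.017 and 0.16 over all alternatives. The coefficient of variation of its CPM (read counts scaled to library size with TMM factors) was 13.6% in PDGF-DD and 8.26% in control, against 1.07% to 6.47% in PDGF-DD and 1.24% to 9.84% in control for the other 9 genes.

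Of the 2 INK4 inhibitors among the 10 genes, Cdkn2b fell and Cdkn2c did not pass. Cdkn2b, which encodes p15, a gene known to be induced by TGF-β in epithelial cells, stood at 22.5, 23.3 and 25.2 TPM in PDGF-DD and at 32.9, 34.8 and 35.4 TPM in control. The groups were well apart, and the log2 fold change was -0.53 (SE 0.07, 95% interval -0.68 to -0.39, edgeR adjusted p = 1.3e-06). Of the 10 genes this was the largest fall. Cdkn2c, which encodes p18, stood at 26.96, 24.5 and 29.3 TPM in PDGF-DD and at 24.5, 25.6 and 30.8 TPM in control, with wide overlap. Its log2 fold change was 0.06 (95% interval -0.10 to 0.21, edgeR adjusted p = 0.588). With Cdkn2b lower, the order of the 2 genes differed between the groups: there were 0.882 ± 0.06 Cdkn2b transcripts per Cdkn2c transcript in PDGF-DD and 1.28 ± 0.12 in control (SD, n = 3 each). Per transcript of Cdkn2b and Cdkn2c together there were 11.5 ± 0.93 transcripts of Cdk4 and Cdk6 in PDGF-DD and 8.79 ± 0.59 in control. This ratio does not cover the whole INK4 class: Cdkn2d, at a mean of 16.7 TPM in PDGF-DD and 17.4 TPM in control, was left out of it.

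Summed over the 5 inhibitors, the level was 517 ± 4.49 TPM in PDGF-DD and 489 ± 17.9 TPM in control, with no overlap. The net gain of 27.9 TPM joined a gain of 50.5 TPM of Cdkn1a to losses of 10.8 TPM of Cdkn2b, 10.3 TPM of Cdkn1b and 1.48 TPM of Cdkn1c. The sum was therefore carried by Cdkn1a, which held 83.0 ± 0.57% of it in PDGF-DD and 77.4 ± 0.66% in control (SD, n = 3 each).

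Ordered by TPM, the genes ran Cdk4, Cdkn1a, Ccnd2, Ccnd3, Ccnd1 and Cdkn1b from the highest down in both groups, and the ranges of neighbours in this stretch did not overlap within a group. Below them came Cdkn2c, Cdkn2b and Cdk6 in PDGF-DD, where the ranges of Cdkn2c and Cdkn2b and those of Cdkn2b and Cdk6 overlapped. In control the order was Cdkn2b, Cdkn2c and Cdk6, with no overlap of neighbours. Cdkn1c was last in both groups. Among all tested genes the mean level of Ccnd1 was at the 90.3rd percentile in PDGF-DD and at the 79.7th percentile in control, and that of Cdk4 was at the 98.0th and 97.9th percentile.

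The deposited values also carry an effective transcript length, obtained from the count, the FPKM (fragments scaled to transcript length and depth) and the library total. It depends on the estimated mix of a gene's transcript forms. For Cdkn2c it was 1898, 1910 and 1854 bases in PDGF-DD and 1817, 1846 and 1800 bases in control. These groups did not overlap, though the lowest PDGF-DD library (1854 bases) was close to the highest control library (1846 bases). The mean was 3.65% longer in PDGF-DD, and the rounding of FPKM alone gives an error of 0.0457%. How often the groups separate over all genes was not counted, so the separation is no result about transcript forms. No other of the 10 genes had groups that did not overlap, and their mean differences lay between -1.18% for Ccnd3 and 0.187% for Ccnd2. RefSeq lists 2 starts for Cdkn2c that lie 1384 bases apart, 2 for Ccnd3 and 2 for Cdkn1a, and which forms were used was not tested. TPM divides by this length and CPM does not. For Cdkn2c, CPM averaged 22.3 ± 1.45 in PDGF-DD and 21.5 ± 2.11 in control, and TPM averaged 26.9 ± 2.40 in PDGF-DD and 26.99 ± 3.38 in control (SD, n = 3 each).

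**Figure D4:**
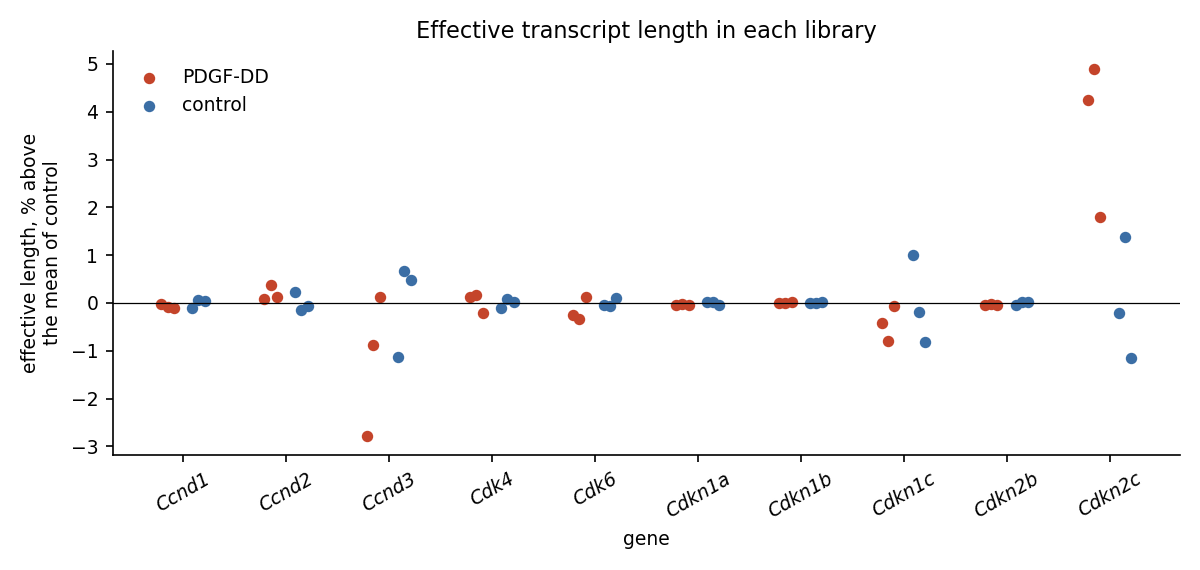
Effective length of each gene in each library, as percent above or below the mean of its 3 control libraries; each point is 1 library, with PDGF-DD in red on the left and control in blue on the right of each pair. Only the points of Cdkn2c are separated by group, at 1854 to 1910 bases in PDGF-DD and 1800 to 1846 bases in control, and Ccnd3 varies within both groups.

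Some counts may be shared with genes on the other strand, since a strand setting is not given in the sources used here. In GENCODE M21, Cdk4 overlaps Tspan31, Ccnd3 overlaps Bysl and Ccnd1 overlaps LTO1, each on the opposite strand and each counted in the deposited tables. Tspan31 did not pass (log2 fold change 0.02, edgeR adjusted p = 0.744). Bysl, a ribosome assembly factor, rose by 0.39 on the log2 scale (edgeR adjusted p = 3.98e-07), in the same direction as Ccnd3. LTO1 went against Ccnd1, and fell by 0.21 on the log2 scale (edgeR adjusted p = 0.0455). The part of shared reads in the values of the 3 genes was not tested.

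The 5 genes whose pattern was most like that of Ccnd1 were Angptl4, Pak1, Pi15, Hmga1 and Tnc. Likeness was the Euclidean distance of centred log2 CPM over the 6 libraries, among the 10459 genes whose mean reached 5 CPM, and the distances ran from 0.139 for Angptl4 to 0.173 for Tnc. Their log2 fold changes lay between 1.00 for Tnc and 1.23 for Hmga1, a gene with near-identical copies whose value is uncertain. The measure mostly picks genes with a rise of the same size, as the libraries form only 2 groups.

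Downstream of the D cyclins, a list of the retinoblastoma protein family (pocket proteins), E2F factors and their partners held 13 tested genes. By edgeR all 13 were called, 10 higher and 3 lower, where 19.1% of all tested genes were higher and 17.4% lower. DESeq2 called 8 higher and 2 lower, and each limma fit 9 higher and 2 lower. By edgeR the E2F genes rose: E2f8, an atypical repressor that is itself an E2F target, rose by 0.68 on the log2 scale (edgeR adjusted p = 4.46e-08) and the activator gene E2f1 by 0.30 (edgeR adjusted p = 5.31e-05). E2f3 (log2 fold change 0.17, edgeR adjusted p = 0.0329) was not called by DESeq2 or any limma fit, and E2f2 was not called by DESeq2. Tfdp1, the dimerization partner of E2F proteins and the most abundant gene of the list, stood at 136 TPM in PDGF-DD and 106 TPM in control (log2 fold change 0.37). The 3 that fell were the pocket protein genes Rbl2 (log2 fold change -0.35, edgeR adjusted p = 0.000565) and Rb1 (-0.18, edgeR adjusted p = 0.0453) and the partner gene Tfdp2 (-0.24, edgeR adjusted p = 0.00131). The call of Rb1 was lost under 10 of 15 alternatives, with adjusted p-values between 0.0222 and 0.244. The median log2 fold change of the list was 0.34, against -0.01 over all tested genes.

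The next kinase of the sequence rose in all its parts. Of 5 genes of cyclin E, cyclin A and CDK2 activity, 5 were higher, with a median log2 fold change of 0.46. Beside this list and the next, 19.1% of all tested genes were higher and 17.4% lower. The cyclin E genes Ccne2 and Ccne1 rose by 0.73 (edgeR adjusted p = 2.46e-09) and 0.61 (edgeR adjusted p = 6.84e-08) on the log2 scale, the phosphatase gene Cdc25a by 0.46, Ccna2 by 0.40 and Cdk2 by 0.33. Of 22 S phase genes that E2F factors drive, 21 rose and none fell (edgeR, DESeq2 and limma; 22 at an unadjusted p under 0.05), with a median of 0.54; Ccne1, Ccne2 and E2f1 are in this list too. Rrm2, a subunit of ribonucleotide reductase, rose by 0.70 and Pcna, the sliding clamp of DNA polymerase, by 0.47 on the log2 scale. The large subunit gene Rrm1 was the exception, at 136 TPM in PDGF-DD and 129 TPM in control (edgeR adjusted p = 0.0965), and passed only without PDGF-DD replicate 1 (adjusted p = 0.039).

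Of 15 genes for the turnover of D cyclins and of the inhibitors p27 and p21, 4 were higher and none lower. Among all tested genes 19.1% were higher and 17.4% lower, and the median log2 fold change of the list was -0.004. Skp2 and Cks1b, whose products together bring p27 to its ubiquitin ligase, rose by 0.50 (edgeR adjusted p = 2.12e-06) and 0.33 (edgeR adjusted p = 4.55e-05) on the log2 scale, and Cul1, the scaffold of that ligase, by 0.15. Dtl, the receptor for p21 and Cdt1 in the CUL4 ligase, rose by 0.59 (edgeR adjusted p = 8.7e-08). Ddb1 and Skp1, the most abundant genes of the list, had log2 fold changes of -0.03 and -0.01 and did not pass. In this list 1 gene was lower under upper quartile scaling and 1 without control replicate 1; of its 15 genes, 5 had an unadjusted p under 0.05. By DESeq2 and 3 limma fits none of the 15 was lower. Of 6 genes of the CDK-activating kinase and of the chaperones that fold CDK4, 3 were higher by edgeR and none lower by edgeR, DESeq2 or limma (3 at an unadjusted p under 0.05 in edgeR), with a median of 0.13. The chaperones rose: Hsp90aa1 by 0.29, Hsp90ab1 by 0.19 and the kinase-specific Cdc37 by 0.15 on the log2 scale, the first 2 being close paralogs whose reads may be shared.

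Beside Cdkn1a, of 15 genes that p53 is known to activate 5 were higher and 3 lower (median log2 fold change 0.05), where 19.1% of all tested genes were higher and 17.4% lower. The polo-like kinase genes Plk2 and Plk3 rose by 0.91 (edgeR adjusted p = 2.35e-14) and 0.51 (edgeR adjusted p = 2.01e-07) on the log2 scale, and the nuclease gene Aen by 0.29. Trp53inp1 fell by 0.52 (edgeR adjusted p = 9.99e-08), the cell death gene Bbc3 by 0.31 and Sesn1 by 0.30. Without PDGF-DD replicate 3 only 1 of these 15 genes was lower, as Bbc3 (adjusted p = 0.0556) and Sesn1 (0.061) no longer passed; over all alternatives the adjusted p reached 0.0556 for Bbc3 and 0.12 for Sesn1, with lowest values of 0.000286 and 0.00883. The abundant targets Bax and Ccng1 stood at 391 and 282 TPM in PDGF-DD and at 385 and 274 TPM in control and did not pass.

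Of 24 cyclins and kinases outside the switch, 4 were higher and 3 lower, and their median log2 fold change was -0.005. These counts are near the 19.1% higher and 17.4% lower among all tested genes and are no result about this list. The mitotic kinase gene Cdk1 rose by 0.38 (edgeR adjusted p = 2.33e-06) and Cdk18 by 0.25 on the log2 scale. Ccng2, whose cyclin is linked to cell cycle exit, fell by 0.56 (edgeR adjusted p = 1.51e-06), Ccni by 0.21 and Cdk14 by 0.14 on the log2 scale. The call of Cdk14 was lost under 7 of 15 alternatives, with adjusted p-values between 0.00374 and 0.11. Under upper quartile scaling 5 genes of this list were lower.

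**Figure D5:**
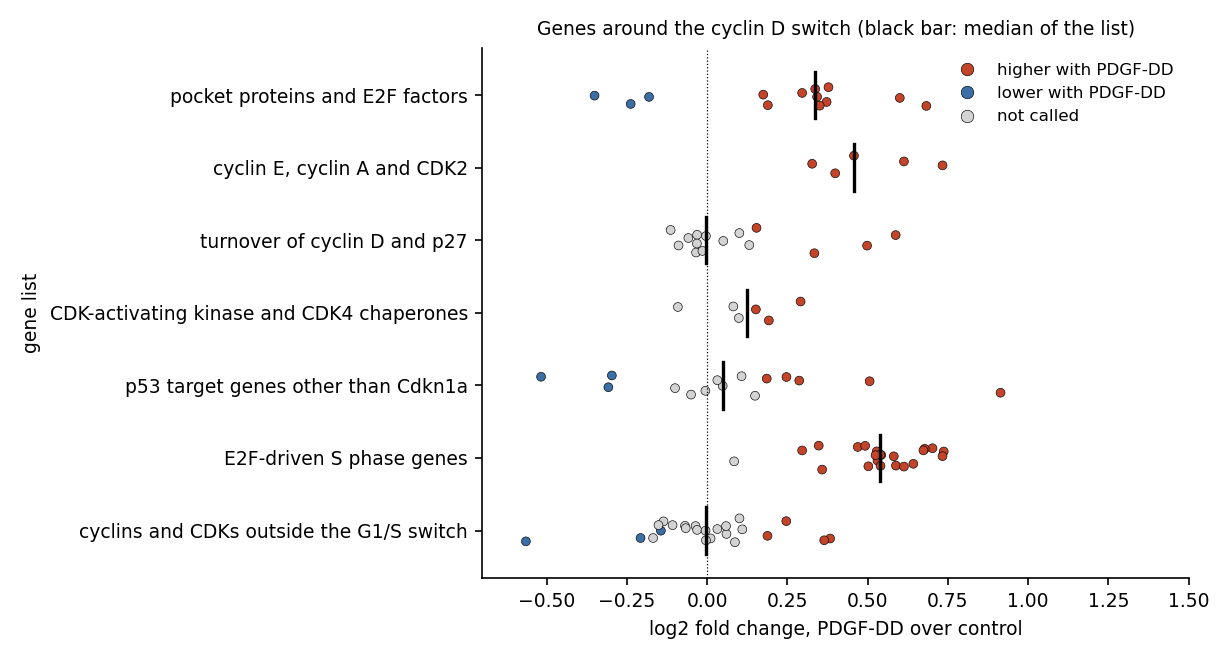
Log2 fold change, PDGF-DD over control, of each tested gene in 7 lists around the cyclin D switch; each point is 1 gene, red for higher, blue for lower and grey for not called, and the black bar is the median of the list. The S phase genes (21 of 22 higher) and the cyclin E, cyclin A and CDK2 genes (5 of 5 higher) lie to the right of 0, and the cyclins and kinases outside the switch lie around it. Among all tested genes 19.1% were higher.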

How the data were processed

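Messenger RNA of primary cardiac fibroblasts was sequenced in 6 libraries, 3 of cells given PDGF-DD and 3 of cells given saline, grouped by sample title. The tools named, with no roles, are RSEM 1.2.12, HISAT2 2.0.4, DESeq2 1.4.5 and Bowtie2 2.2.5, and the build is mm9, per the submitters' processing notes. Filters on reads, the annotation and the handling of strand were not given in the sources used here. The authors deposited, per the file headers, estimated counts without normalization, FPKM values scaled to length and depth, and TPM values scaled to length and to the same sum per library.

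The estimated counts were rounded, filtered with filterByExpr at its defaults, scaled with TMM factors (0.995 to 1.01) and compared with the quasi-likelihood test of edgeR 4.0.16 (robust, two-sided) in R 4.3.3, with Benjamini-Hochberg adjustment over 13270 genes. Standard errors (SE) were obtained from the F statistic and the fold change. Levels, shares and ratios are per library from the deposited TPM, with no test. With 3 libraries against 3 an exact permutation test cannot give a p below 0.1, so none is used. The procedure was run on simulated data in which 200 genes were changed. Far more genes were called here, so that run does not measure error rates in these data. Limma 3.58.1, on the 13270 genes that passed the filter, and DESeq2 1.42.0, on all genes with any count, served as alternatives. The pseudocounts for limma were 1 and 0.1 for TPM and 1 for FPKM. Other alternatives were 3 scalings, no filter on low counts, a replicate block and leaving out each library.

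The 10 genes and the 14 lists of other genes were chosen with earlier results of these data known, and support nothing by their choice. All 10 genes are named. From each list up to 4 called genes with the smallest p, the 2 most abundant and any called gene that went against its list could be named, and Skp1a was matched to Skp1 through RefSeq synonyms. Bysl, LTO1, Tspan31 and Cdkn2d were added after their values were seen. Because the reference build differs from mm9, coordinates are given only for RefSeq promoter sequences.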

Additional observations from a re-analysis of the deposited data

How the results depend on the processing

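Over 15 alternatives, between 3607 (DESeq2) and 5035 (no filter on low counts) genes were called, against 4845, with 1996 to 2709 higher and 1611 to 2636 lower. When 1 library was left out the count lay between 3876 and 5017. Of the 10 genes 6 to 8 were called without 1 library (6 when control replicate 2, control 3 or PDGF-DD 2 was the library left out) and 7 or 8 under the other alternatives. Without control replicate 1, which differed more from both other controls than these from each other (chi-square per degree of freedom 5.11 and 5.70, against 2.48), all 8 calls held. Ccnd1, Ccnd2, Cdkn1a, Cdkn1b and Cdkn2b kept direction and call under all 15 alternatives, with log2 fold changes of 1.11 to 1.16, 0.30 to 0.35, 0.16 to 0.21, -0.41 to -0.35 and -0.56 to -0.48. Among the 10 genes and the genes named from the 7 lists around the switch, signs turned for 4, none of them called by the edgeR test: Cdk6 (0.00383 with total counts, 0.00584 with limma on log2(FPKM + 1), and -0.042 to 0.037 when 1 library was left out, positive without control replicate 2 at 0.025 and PDGF-DD replicate 3), Cdkn2c (-0.00197 and -0.00193 with limma on log2(TPM + 1) and log2(TPM + 0.1)), Skp1 (-0.062 to 0.056 when 1 library was left out, positive without control replicate 1 and, at 0.00328, PDGF-DD replicate 3) and Bax (-0.00097 to 0.067, negative without PDGF-DD replicate 2). The cause was not tested. The call of E2f4 was lost without control replicate 2 (adjusted p = 0.0519). Deviations of same-numbered libraries from their group means correlated at -0.31, -0.36 and 0.0036 across 10459 genes. For libraries with different numbers the correlations lay between -0.16 and 0.38. Deviations from a mean of 3 libraries are tied to one another, so these values cannot decide whether libraries were paired. With the replicate block 4345 genes were called, 7 of the 10 genes and 57 genes of the 7 lists around the switch (58 without it). Of the 10 genes Cdk4 lost its call. Depth limits precision mainly for Cdkn1c, at 75 to 120 counts per library.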

Other observations

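A further INK4 gene, Cdkn2d, which encodes p19 and was looked at after the others, stood at 16.3, 16.2 and 17.6 TPM in PDGF-DD and at 17.9, 16.2 and 18.2 TPM in control. The groups overlapped, and it did not pass the test (log2 fold change -0.05, 95% interval -0.24 to 0.14, edgeR adjusted p = 0.69).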
